A study of Mus musculus with 6 samples.

Results

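Cdh5, Ctnnb1, Cldn5, Ocln, Tjp1, Esam, F11r, Jam2 and Jam3, 9 genes that encode proteins of the endothelial cell junction, were followed across 3 subsets of thymic endothelial cells (ECs). They were taken by gene symbol, each symbol had a single row in every file, and so all 9 members were found among 24457 genes. The ECs came from the thymus of wildtype female C57BL/6 mice of 4 to 6 weeks and were sorted as CD31+CD45-EpCAM- cells. The labels call Ly6C+Selp- cells type I, Ly6C+Selp+ cells type II and Ly6C-Selp+ cells type III. RNA of each subset was sequenced in 2 libraries, 6 in all, at a stated sort purity of at least 90%. The sources do not say whether the 2 libraries of a subset came from separate mice, so p-values measure the spread between these libraries, which may be technical. The sort was made on P-selectin (Selp) and Ly6C, and on CD31, the product of Pecam1, and none of the 9 members was a sort marker.

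ECs are held together by adherens junctions and tight junctions that lie intermingled along the cell border. In the adherens junction VE-cadherin binds VE-cadherin on the neighbouring cell, and its tail is tied to the cytoskeleton through β-catenin or plakoglobin. In the tight junction claudins form the sealing strands, occludin accompanies them, ZO-1 is the scaffold beneath, and the junctional adhesion molecules (JAMs) and ESAM lie alongside. Leukocytes and progenitor cells that leave the blood often pass between ECs at these borders.

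The transcript of claudin-5 fell from type I to type III ECs. By contrast, VE-cadherin, β-catenin, ZO-1, ESAM and the JAMs were expressed in all 3 subsets, and none of them passed the test used here. The study itself, with the program Cuffdiff, lists the claudin-5 gene Cldn5 and also the JAM gene Jam3 as different between type I and type III ECs. The FPKM of Cldn5 averaged 387 ± 32.4 (SD, n = 2) in type I, 127 ± 37.9 (SD, n = 2) in type II and 29.4 ± 8.47 (SD, n = 2) in type III ECs. FPKM scales the fragments of a gene by transcript length and by the depth of the library, so that levels of different genes can be set side by side. Outside the 9 members, the transcript of plakoglobin (Jup) also fell between type I and type III. The stretches just upstream of the transcription start of both genes are shown because these 2 genes had the smallest p-values, between type III and type I ECs, among the members and the wider list of junction genes described further on. The sequences are the 250 bases before the start in RefSeq, on GRCm38.p6, at chr16:18776597-18776846 on the plus strand for Cldn5 and at chr11:100397791-100398040 on the minus strand for Jup, and capitals mark CCAAT and GGGCGG on either strand.
Cldn5: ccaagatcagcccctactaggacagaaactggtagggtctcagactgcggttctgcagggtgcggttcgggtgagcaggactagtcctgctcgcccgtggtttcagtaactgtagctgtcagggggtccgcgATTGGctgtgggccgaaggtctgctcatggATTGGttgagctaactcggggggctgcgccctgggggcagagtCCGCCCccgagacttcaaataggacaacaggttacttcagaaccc
Jup: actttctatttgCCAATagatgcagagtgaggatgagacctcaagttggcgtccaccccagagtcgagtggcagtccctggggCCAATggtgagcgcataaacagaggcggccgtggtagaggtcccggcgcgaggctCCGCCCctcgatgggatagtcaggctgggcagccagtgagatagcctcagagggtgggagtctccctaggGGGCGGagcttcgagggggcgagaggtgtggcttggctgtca
Both stretches held CCAAT at 2 places, a motif present in 33.8% of the 32851 promoter entries of the same length. GGGCGG, found in 32.7% of the entries, occurred once for Cldn5 and at 2 places for Jup. GGAAG (64.1% of entries), ACAAT (27.7%), CACGTG (6.02%) and TATAAA (12.4%) were present in neither stretch, and TAAACA, found in 12% of entries, occurred once for Jup and was absent for Cldn5. The motifs searched did not overlap each other in these stretches and were chosen after the values were seen. These are letters and not sites of binding. Of the 9 members, 5 had an entry, and F11r, which did not pass the test in any comparison, held CCAAT at 3 places.

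The checks of the libraries bear on every member. Selp lay at 5.2 to 7.87 FPKM in Ly6C+Selp- ECs, at 313 to 416 in Ly6C+Selp+ ECs and at 526 to 657 in Ly6C-Selp+ ECs, and Ly6c1 went from 692 to 1010 through 351 to 522 down to 59.7 to 99.6, both as the sort would have it. All 8 endothelial markers, a list that includes Cdh5 and Pecam1, were present in all libraries, with a summed FPKM of 2160 to 2840. Of these 8, 2 passed between type III and type I in opposite directions, Eng at 1.10 (limma adjusted p = 0.040) and Kdr at -1.49 (limma adjusted p = 0.0079) on the log2(FPKM + 1) scale. Markers of other cells were detected at lower sums. The 9 haematopoietic and thymocyte genes summed to 100 and 25.5 FPKM in type I, 68.1 and 43.1 in type II and 181 and 79.5 in type III ECs, and all 8 of them that were tested had differences above 0 for type III against each other subset, none past the threshold. The 3 lymphatic genes summed to at most 5.17 FPKM in type I and type II and to 20.6 and 6.19 in type III ECs, and 8 thymic epithelial genes to 14.1 to 51.1 over all libraries. Among the markers of other cells only Ptcra, Cldn4 and Lyve1 were listed at 0 in any library. The 7 mesenchymal and mural genes, none of them at 0, summed to 201 to 491 FPKM in Ly6C+Selp- ECs, to 279 to 455 in Ly6C+Selp+ ECs and to 104 to 142 in Ly6C-Selp+ ECs, so this sum was lower in both type III libraries than in any other. Of these 7 genes 1, Pdgfrb, passed between type III and type I, with a difference of -1.85 on the same scale (limma adjusted p = 0.013). The list did not move as 1, since 6 differences lay below 0 and that of Acta2 above it, at 1.16 (limma adjusted p = 0.18). Those of Pdgfra and Col1a1 were -0.16 and -0.36. Rgs5 alone was at 346 and 114 FPKM in type I and weighed most in these sums there. In bulk samples such as these, fewer cells of a kind and less RNA per cell cannot be told apart. A median-ratio size factor gives the scale of a library over genes above 0 in all 6. For replicates 1 and 2 it was 1.19 and 0.849 in type I, 1.02 and 0.909 in type II and 1.16 and 0.987 in type III. Replicate 1 thus ran higher over these genes in every subset, and the FPKM values given here keep that scale. An estimate of the fragments behind each value, read from the width of the deposited intervals, sums to between 1452476 and 2423171 per library, and the FPKM worth 3 fragments had a median over genes of 0.3 to 0.521.

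The adherens junction is the first group. Cdh5, the gene of VE-cadherin, found at 106625525 to 106668402 of chromosome 8 in mm9 on the plus strand, had the highest FPKM of the 9 members in every subset. It was at 632 and 595 FPKM in type I, at 448 and 436 in type II and at 414 and 486 in type III ECs. All 4 libraries of the Selp+ subsets lay below both type I libraries, and the Selp+ subsets overlapped each other. The difference on the log2(FPKM + 1) scale, used for all differences given here, was -0.45 between type III and type I (95% interval -0.95 to 0.05, limma adjusted p = 0.43). It was -0.47 between type II and type I (95% interval -0.97 to 0.03, limma adjusted p = 0.70) and 0.02 between type III and type II (95% interval -0.48 to 0.52). Neither of the first 2 differences passed, but type III against type I passed when the libraries were quantile normalized, where it was -0.73 (limma adjusted p = 0.037). The 3 comparisons share libraries and are not independent of each other.

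Ctnnb1, which encodes β-catenin, the partner of VE-cadherin that also acts in Wnt signalling, lies on chromosome 9 from 120842518 to 120869625 on the plus strand. Its FPKM was 209 and 144 in type I, 148 and 123 in type II and 148 and 127 in type III ECs. The ranges of all 3 subsets overlapped in these FPKM values, whose spread within a subset includes the scale of the libraries. The difference between type III and type I was -0.33 (95% interval -0.92 to 0.25, limma adjusted p = 0.68). With size factors it was -0.42 (limma adjusted p = 0.18). As a percentage of Cdh5 in the same library, a ratio that a single factor per library leaves as it is, Ctnnb1 stood at 28.6 ± 6.27% (SD, n = 2) in type I, 30.6 ± 3.37% (SD, n = 2) in type II and 31 ± 6.77% (SD, n = 2) in type III ECs. The ratio of β-catenin to VE-cadherin transcripts thus varied more within subsets than between them.

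The tight junction members parted from each other. Cldn5, whose product is the main claudin of many blood vessels and a seal of the blood-brain barrier, lies on chromosome 16 from 18776940 to 18778355 on the plus strand and has 1 exon in the GENCODE annotation of this assembly. Its FPKM was 410 and 364 in type I, 154 and 101 in type II and 35.4 and 23.4 in type III ECs, and no subset overlapped another. The estimated fragments behind these values were 1559 and 1725, then 437 and 445, then 96 and 110, so that the lowest level still rested on many fragments. Between type III and type I ECs Cldn5 fell by 3.70 on the log2(FPKM + 1) scale (SE 0.29, 95% interval -4.36 to -3.03, limma adjusted p = 2.5e-04), a 13-fold lower level, and ranked 24 by p-value among 11717 genes tested. The step from type II to type III was -2.07 (SE 0.29, 95% interval -2.74 to -1.41, limma adjusted p = 0.041). The step from type I to type II was -1.63 (SE 0.29, 95% interval -2.29 to -0.96, limma adjusted p = 0.067) and missed the threshold.

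The fall of Cldn5 between type III and type I passed in 12 of 13 alternative settings, among them each of the 6 that left out a library, and was at a limma adjusted p of 0.062 with no filter on low values. The step from type II to type III did not pass in any of the 6 fits without a library (limma adjusted p 0.053 to 0.28). It was weakest without type II replicate 1, at -1.77. The step from type I to type II passed in 3 of 13 alternative settings, among them quantile normalization (limma adjusted p = 0.015) and median-ratio size factors (limma adjusted p = 0.024). On the log2 scale the type II mean lay 0.22 above the middle of the other subsets (95% interval -0.35 to 0.80, limma adjusted p = 0.99), and none of the 8 members tested lay off this middle by limma, where 0.0427% of all genes tested did, with 0 of 8 under an unadjusted p of 0.05. The mesenchymal and mural marker sums were lower in type III ECs than in the other subsets, and their part in the Cldn5 levels was not tested.

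**Figure D1:**
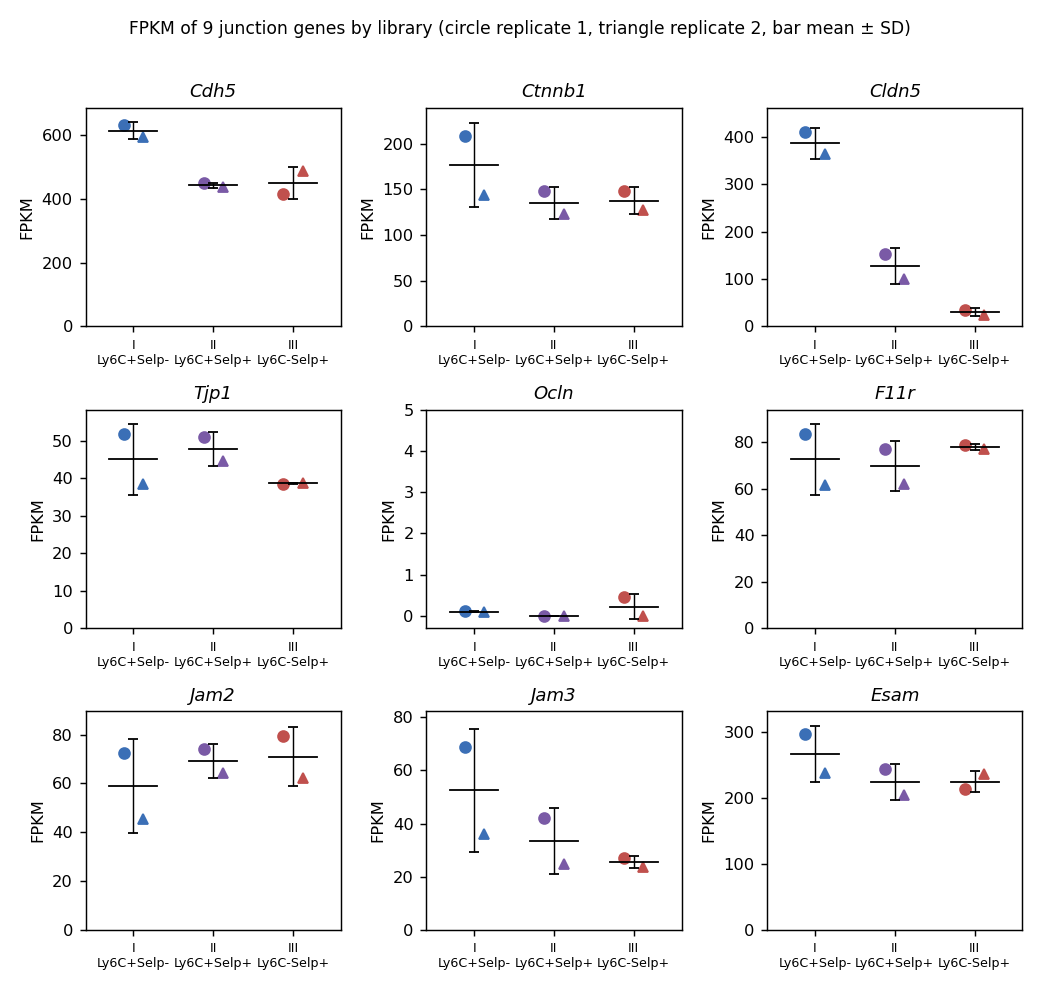
FPKM (y axis, linear) of the 9 junction genes in each library of the 3 subsets (x axis), with circles for replicate 1, triangles for replicate 2 and bars for the mean ± SD of 2 libraries. Cldn5 falls from 410 and 364 through 154 and 101 to 35.4 and 23.4 FPKM, Cdh5 stays at 414 or more in all libraries, and Ocln at 0.446 or less.

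Tjp1, the gene of the scaffold protein ZO-1, lies on chromosome 7 from 72441051 to 72516130 on the minus strand. Its FPKM was 51.8 and 38.4 in type I, 51 and 44.6 in type II and 38.6 and 38.8 in type III ECs. The type III libraries lay just below those of type II and within the range of type I, and the difference between type III and type I was -0.20 (95% interval -0.77 to 0.36, limma adjusted p = 0.83). Ocln, the gene of occludin, lies on chromosome 13 from 101267322 to 101322453 on the minus strand and was at or near the limit of detection. It was at 0.106 and 0.0853 FPKM in type I, was listed at 0 in both type II libraries, and was at 0.446 and 0 in type III ECs, with at most 3 estimated fragments in any library. Ocln was the only member below the filter of an FPKM of 1 in at least 2 libraries, so it was not tested and no fold is given.

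The JAMs bind each other and integrins of leukocytes across the junction. F11r, which encodes JAM-A, lies on chromosome 1 from 173367692 to 173394724 on the plus strand and was at 83.5 and 61.8 FPKM in type I, 77.2 and 62 in type II and 78.9 and 77.2 in type III ECs. Jam2, which encodes JAM-B, lies on chromosome 16 from 84774368 to 84826620 on the plus strand and was at 72.5 and 45.4, 74.1 and 64.4, and 79.5 and 62.3 FPKM in the same order. For both genes the type III range lay within or across that of type I. The differences between type III and type I were 0.12 for F11r (95% interval -0.45 to 0.69, limma adjusted p = 0.91) and 0.29 for Jam2 (95% interval -0.35 to 0.94, limma adjusted p = 0.77), and both turned below 0, to -0.10 and -0.04, without type I replicate 2.

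Jam3, which encodes JAM-C, a partner of JAM-B across the junction, lies on chromosome 9 from 26904969 to 26963006 on the minus strand. It was at 68.8 and 36.1 FPKM in type I, 42.2 and 24.7 in type II and 27 and 23.8 in type III ECs. Both type III libraries lay below both type I libraries, while type II overlapped each of them. The study lists Jam3 among the genes that Cuffdiff called between type I and type III. In the FPKM values printed there, which differ from the deposited ones, no subset overlapped another for Jam3. The difference between type III and type I was -0.95 (95% interval -1.77 to -0.13, limma adjusted p = 0.26) and did not pass, although the interval lay below 0, and 1 of 13 alternative settings called it. Replicate 1 was the higher library for Jam3 in every subset, and it also had the higher size factor over all genes in each. The Jam3 difference ranged from -1.40 without type I replicate 2 to -0.49 without type I replicate 1. Mesenchymal and mural sums were 491 and 201 FPKM in type I, 455 and 279 in type II and 104 and 142 in type III. In type I and in type II the sum and Jam3 were both higher in replicate 1. In type III the sum was higher in replicate 2, and Jam3, at 27 and 23.8 FPKM, was slightly higher in replicate 1. The part of these cells in the Jam3 values was not tested.

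As shares of the summed FPKM of F11r, Jam2 and Jam3 in a library, Jam3 took 30.6 and 25.2% in type I, 21.8 and 16.3% in type II and 14.6 and 14.6% in type III ECs. No subset overlapped another in this share. Jam2 took 32 ± 0.397% (SD, n = 2) in type I against 40.5 ± 3.34% (SD, n = 2) in type III ECs, and F11r 40.1 ± 4.23% (SD, n = 2) against 44.9 ± 3.32% (SD, n = 2). The smallest p that exact permutation can give for 2 libraries against 2 is 0.33, so the ratios within libraries, which were chosen after the values were seen, were not tested. Esam, the gene of an adhesion molecule of ECs and platelets, lies on chromosome 9 from 37335674 to 37345904 on the plus strand and was at 297 and 237 FPKM in type I, 243 and 204 in type II and 213 and 236 in type III ECs. The subset means differed by less than the 2 type I libraries did, a spread that includes the scale of those libraries. The difference between type III and type I was -0.24 (95% interval -0.77 to 0.29, limma adjusted p = 0.77). With size factors it was -0.33 (limma adjusted p = 0.40).

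**Figure D2:**
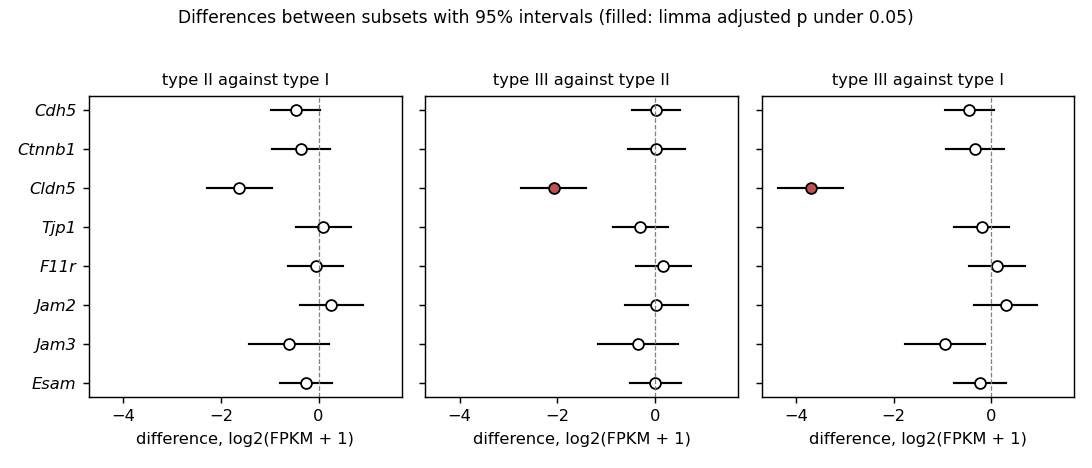
Differences between subsets on the log2(FPKM + 1) scale (x axis) for the 8 members tested (y axis), with 95% intervals from the limma fit and filled points for a limma adjusted p under 0.05. Cldn5 is the lone member with filled points, at -2.07 for type III against type II and -3.70 for type III against type I.

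Read over the whole table, 1 of the 8 tested members passed between type III and type I ECs, where 4.14% of the 11717 genes tested did and 2.05% were called lower. The same member, Cldn5, passed between type III and type II, where 0.222% of genes did and 0.128% were called lower. No member passed between type II and type I by limma (0.393% of genes did), with 1 of 8, Cldn5, under an unadjusted p of 0.05. Both libraries of type III lay below both of type I for 4 members, Cdh5, Cldn5, Jam3 and Esam, and above for none, against 17.1% of tested genes that were lower and 20.7% that were higher in this way. For Esam the gap was under 1 FPKM. Type II lay below type I without overlap for 2 members, Cdh5 and Cldn5, and above for none (20.6% and 13.0% of genes). Type III lay below type II for 2 members, Cldn5 and Tjp1, and above for 1, F11r (13.3% and 27.7% of genes), the last by under 1 FPKM. The median difference of the 8 members between type III and type I was -0.29, beside 0.08 over all genes tested. Between type III and type II it was 0.01 beside 0.14, a shift of all genes that quantile normalization and size factors took to about 0.

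The order of the members changed with the subset through Cldn5 and Jam3. In type I ECs Cdh5 was followed by Cldn5, Esam and Ctnnb1, each with both libraries above both of the next, while F11r, Jam2, Jam3 and Tjp1, in this order, were not separated from one to the next. In type II ECs Cldn5 was level with Ctnnb1, behind Cdh5 and Esam. In type III ECs it had dropped to the place after Tjp1, not separated from Jam3. Cldn5 made up 22.5 and 23.9% of the summed FPKM of the 9 members in type I, 12.5 and 9.48% in type II and 3.42 and 2.18% in type III ECs. Set against Cdh5 in the same library, Cldn5 stood at 64.8 and 61.1% in type I, 34.4 and 23% in type II and 8.56 and 4.82% in type III ECs. A single scaling factor per library leaves both ratios as they are, and in both no subset overlapped another.

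**Figure D3:**
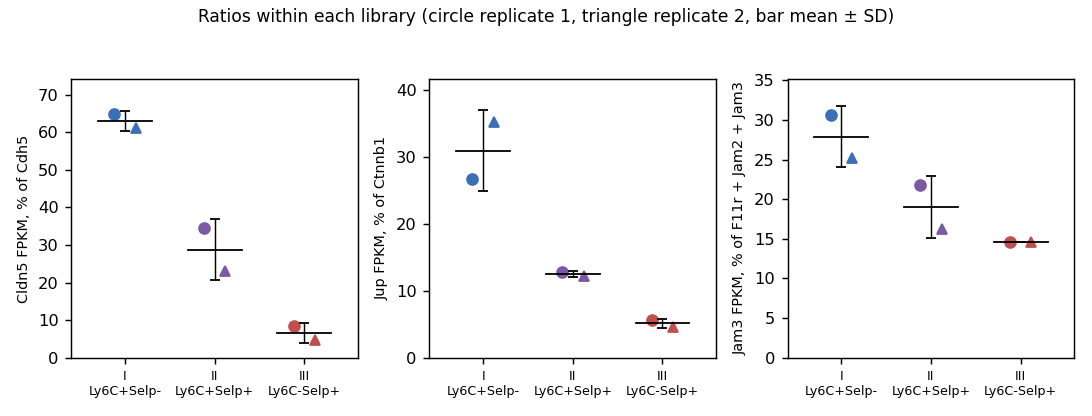
Ratios of FPKM within each library, in percent (y axes, linear from 0), for Cldn5 against Cdh5, Jup against Ctnnb1, and Jam3 against the sum of F11r, Jam2 and Jam3, by subset (x axis), with the mean ± SD of 2 libraries. All 3 ratios are highest in type I and lowest in type III, Cldn5 going from 64.8 and 61.1% to 8.56 and 4.82%.

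The patterns most like those of Cdh5 and Cldn5 were sought among 4200 other genes with a mean FPKM of at least 10, by the root mean square difference of centred log2 values over the 6 libraries. Nearest to Cdh5 were Ushbp1 at 0.05, Ppp1r16b at 0.06 and Nisch at 0.06. Nearest to Cldn5 were the chemokine gene Cxcl12 at 0.23, Mcf2l at 0.25 and Gpihbp1 at 0.27, the last of which encodes the anchor of lipoprotein lipase on capillary ECs. Cxcl12, for example, was at 521 and 360 FPKM in type I, 245 and 152 in type II and 50.6 and 36.8 in type III ECs. Mcf2l went from 57 and 60.9 to 2.5 and 1.87 FPKM between type I and type III.

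A wider list of 46 other junction genes, 45 of them in the files and 42 above the filter, gave 6 genes that passed between type III and type I, all 6 lower in type III, beside 2.05% of all tested genes that were called lower. The study also lists these 6 genes as different between type I and type III ECs. The median difference of the 42 was 0.06 beside 0.08 over all genes tested, with 25 genes above and 17 below 0. Between type II and type I none of the 42 passed by limma (0.393% of all genes did), with 4 under an unadjusted p of 0.05. Between type III and type II 1 passed, Gja4, where 0.222% of all genes did. The share of all genes under an unadjusted p of 0.05 is not given here, so such counts have no background beside them. Counts by role below are for type III against type I, where 4.14% of all genes passed.

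Among the partners of VE-cadherin, 1 of 8 passed. Jup, whose product plakoglobin can take the place of β-catenin on the cadherin tail, lies on chromosome 11 from 100230170 to 100259104 on the minus strand. It was at 55.7 and 50.7 FPKM in type I, 18.9 and 15 in type II and 8.32 and 5.92 in type III ECs, with no overlap between subsets. Between type III and type I Jup fell by 2.75 on the log2(FPKM + 1) scale (SE 0.28, limma adjusted p = 7.8e-04), and the difference was -1.60 (SE 0.28, limma adjusted p = 0.057) between type II and type I, which did not pass. As a percentage of Ctnnb1 in the same library Jup stood at 26.7 and 35.2% in type I, 12.8 and 12.2% in type II and 5.62 and 4.65% in type III ECs. Summed epithelial markers were at 51.1 and 22.9 FPKM in type I, 24.8 and 19 in type II and 49.1 and 14.1 in type III. Of this list Krt5 was at 12.5 and 7.44, 2.54 and 1.49, and 5.38 and 3.51 FPKM in the same order. Krt5 differed by -0.99 between type III and type I (limma adjusted p = 0.26), the direction that Jup took. Between type III and type II Krt5 differed by 0.85 and Jup by -1.15 (limma adjusted p = 0.50 and 0.16). Between type III and type I, 4 of the 8 epithelial genes had differences above 0 and 4 below, with Krt8 at -0.13. The part of epithelial cells in the Jup values was not tested. Of the other partners, Ptprb, a phosphatase that acts on VE-cadherin, was at 154 to 206 FPKM and Ctnna1, the gene of α-catenin, at 79.3 to 101 over the 6 libraries, and neither passed.

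In the tight junction group 1 of 13 tested genes passed, and it was a second claudin. Cldn15 was at 18.2 and 13.5 FPKM in type I, 3.84 and 5.22 in type II and 3.25 and 0.941 in type III ECs, with 12 and 6 estimated fragments in type III. Its difference between type III and type I was -2.54 (SE 0.41, limma adjusted p = 0.0094), and it no longer passed without type I replicate 1 (0.073), type I replicate 2 (0.053) or type III replicate 2 (0.053), in limma adjusted p. The angiomotin-like Amotl2 and Amotl1, at 20.2 to 33.4 FPKM over the 6 libraries, did not pass. Cldn1, Cldn3 and Cgn, the gene of cingulin, were below the filter and not tested. Of these Cldn1 was at 3.81 and 0.766 FPKM in type III and at 0.691 or less in the other libraries.

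The connexins of gap junctions split. Gja4 (connexin 37) and Gja5 (connexin 40), known from arterial ECs, both fell between type I and type III, while Gja1 (connexin 43), at 105 to 151 FPKM over the 6 libraries, and Gjc1, at 5.66 to 21.6, did not pass. Gja4 was at 28.1 and 27 FPKM in type I, 23.3 and 14.9 in type II and 1.51 and 3.83 in type III ECs. Its difference was -3.04 between type III and type I (SE 0.37, limma adjusted p = 0.0022) and -2.50 between type III and type II (SE 0.37, limma adjusted p = 0.044), and the second was lost in each of the 6 fits without a library (limma adjusted p 0.059 to 0.28). Gja5 was at 13.6 and 15.3, 14.5 and 4.05, and 1.22 and 0.354 FPKM in the same order, a difference of -3.15 between type III and type I (SE 0.51, limma adjusted p = 0.0092) that rested on 6 and 3 estimated fragments in type III. It was lost without type I replicate 1 (0.054), type I replicate 2 (0.081) or type III replicate 2 (0.063), in limma adjusted p. Between type II and type I the difference of Gja4 was -0.54 (95% interval -1.38 to 0.30, limma adjusted p = 0.87). Both connexins and the mesenchymal and mural sums were lowest in type III, and the part of the latter in these falls was not tested.

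Among the nectin group 1 of 5 passed, Mllt4, which encodes afadin, the link of nectins to actin. It was at 69.6 and 53.9 FPKM in type I, 41.3 and 38.2 in type II and 25 and 25.9 in type III ECs, a difference of -1.24 between type III and type I (SE 0.24, limma adjusted p = 0.023). In the control of junctions by the small GTPase Rap1 and the cerebral cavernous malformation proteins 1 of 10 passed, Rapgef1, an exchange factor for Rap1. It was at 60.6 and 72.7, 36.8 and 42.9, and 24.6 and 30 FPKM, a difference of -1.26 (SE 0.25, limma adjusted p = 0.023). For neither gene did any subset overlap another, but both calls were near the threshold. Of the 6 fits without a library, Mllt4 passed in 1, without type I replicate 2, and Rapgef1 in 2, without type I replicate 1 and without type II replicate 1. Without type III replicate 1 their limma adjusted p was highest, at 0.16 and 0.20. The nectin genes Pvrl2 and Pvr, at 18.6 to 56.2 FPKM, did not pass, nor did Rasip1 and Rap1b, at 80.5 to 165 FPKM. At the lateral border Pecam1, a sort marker, was at 669 and 496 FPKM in type I, 735 and 674 in type II and 867 and 811 in type III ECs, a difference of 0.54 between type III and type I (95% interval -0.01 to 1.09, limma adjusted p = 0.36). Cd99l2, at 6.01 to 17.1 FPKM, did not pass.

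**Figure D4:**
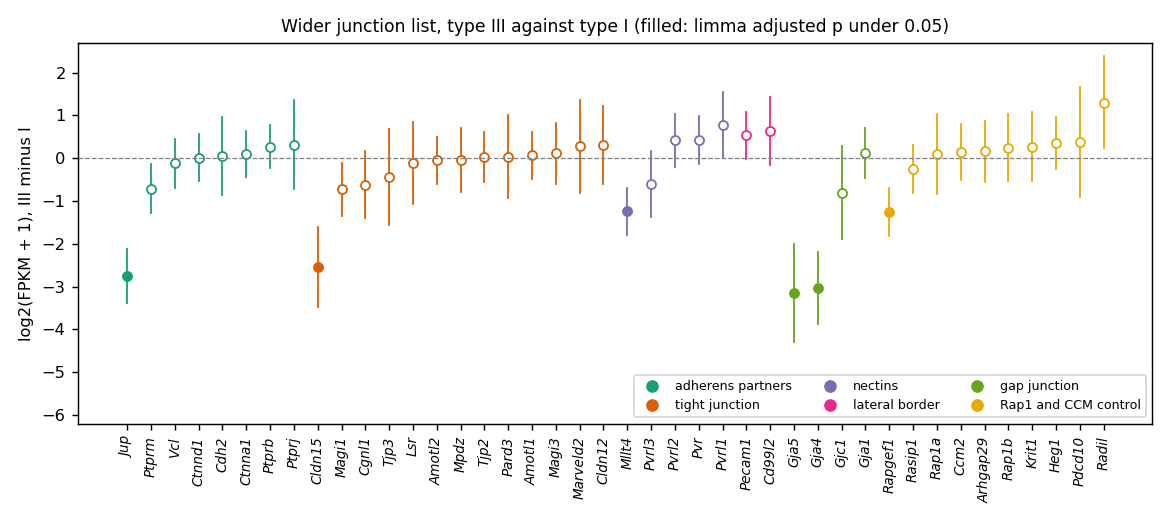
Differences between type III and type I ECs on the log2(FPKM + 1) scale with 95% intervals (y axis) for the 42 tested genes of the wider junction list (x axis), coloured by role, with filled points for a limma adjusted p under 0.05. The 6 filled points, Jup, Cldn15, Mllt4, Gja5, Gja4 and Rapgef1, all lie below 0, between -3.15 and -1.24.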

How the data were processed

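Sorted mouse thymic ECs of 3 subsets were sequenced in 2 libraries each. According to the study's methods and the submitters' processing notes, the authors removed adapters and poor reads, and used TopHat2 2.0.10, mm9 and Cufflinks 2.1.1. They deposited FPKM values per library with interval bounds. The gene annotation is not given in the sources used here.

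From the deposited FPKM, log2(FPKM + 1) was fitted, for the 11717 genes that reached an FPKM of 1 in 2 or more libraries, with limma 3.58.1 in R 4.3.3 (trend on mean expression, all 6 libraries, 1 mean per subset). The Benjamini-Hochberg adjustment ran over all genes tested, with a threshold of 0.05. This scale understates differences of low genes. Cuffdiff, used by the study, needs reads. Fragments were estimated from interval half-widths, taken as 2 FPKM divided by the root of the fragments, as if they held counting error alone. Rows for 92 spike-ins and 3 other unnamed sequences were left out. Exon numbers and strands came from GENCODE mouse release 1 on the same assembly, and coordinates are 1-based. Scripts were tested on simulated data. The members and lists were chosen with earlier results of these data known. All 9 members were described, and of the wider list each gene past the threshold and otherwise the 2 of highest mean FPKM per role.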

Additional observations from a re-analysis of the deposited data

How the results depend on the processing

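The fall of Cldn5, Jup and Gja4 between type III and type I ECs passed in 12 of 13 alternatives each, with no filter on low values as the exception. With no filter, 0 members and 0 genes of the wider list passed between type III and type I (102 genes in all, 10 between type II and type I, and 2, with 0 members and 0 listed genes, between type III and type II). The cause was not tested. With the replicate number as a block, the genes called were 971, 183 and 229 in these 3 comparisons, in place of 485, 46 and 26. With the block 2 members (Cldn5 and Jam3, at -0.95 and a limma adjusted p of 0.033) passed between type III and type I, 1 member (Cldn5, at -1.63 and a limma adjusted p of 0.0061) and 1 listed gene (Jup) between type II and type I, and 3 listed genes between type III and type II. Library deviations of the same number correlated at 0.20, 0.31 and 0.18 between subsets, but nothing in the labels says that a number marks a shared sort or day, so these samples share only a number. Quantile normalization gave 2 members (Cldn5 and Cdh5) between type III and type I, 1 member and 1 listed gene between type II and type I (102 genes, 72 higher and 30 lower, in place of 38 and 8), and 2 listed genes between type III and type II (89 genes, 21 higher and 68 lower, in place of 11 and 15). Median-ratio size factors gave 97 genes (68 higher, 29 lower), with 1 member and 1 listed gene, and 85 genes (23 higher, 62 lower) in the last 2 comparisons. Between type III and type II ECs, a fit without the trend (10 genes) and one of the 4 samples compared (7 genes) each left 0 members and 0 listed genes, and a pseudocount of 0.1 left 0 listed genes. Between type II and type I these 2 fits gave 15 and 29 genes. Leaving out 1 library in turn gave 209 to 404, 12 to 33 and 2 to 14 genes, 1, 0 and 0 members, and 2 to 5, 0 and 0 to 1 listed genes.

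Directions of differences near 0 were not stable. Between type III and type II, Cdh5 turned to -0.36 under quantile normalization and -0.13 under size factors, and lay between -0.10 and 0.14 with a library left out. With a library left out, the difference between type III and type I lay between -0.41 and 0.01 for Tjp1, -0.10 and 0.33 for F11r and -0.04 and 0.62 for Jam2, and that of Cldn5 from the midpoint between -0.08 and 0.53. Depth limits Ocln among the members, and Gja4, Gja5 and Cldn15 among the 6 called genes of the wider list, each with 12 or fewer estimated fragments in at least 1 type III library.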
